A study of Rattus norvegicus with 24 samples.

Results

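The extracellular matrix and matrix remodelling genes examined here were a list of 54 genes for secreted matrix proteins, proteoglycans, matrix proteases and plasminogen activators, taken by symbol and joined to the array through the RefSeq accession of each probe. A probe was matched for 37 of the 54 genes (43 probes, 6 genes with 2 probes), out of 33849 rat probes and 4013 named genes on the array. The other 17 genes (Sparc, Thbs4, Col1a1, Col3a1, Col5a2, Col11a1, Col12a1, Col18a1, Lamc1, Lox, Efemp1, Dcn, Bgn, Vcan, Mmp16, Mmp24 and Plaur) were not analysed here. Of the 37 genes, 30 passed the limit on dim probes and were tested, and 7 (Fn1, Fbln5, Lum, Bcan, Acan, Sdc1 and Mmp3) lay under it.

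Retinal RNA came from male Sprague Dawley rats that received streptozotocin (STZ), a toxin of the insulin-producing beta cells, or citrate vehicle alone. Retinas were taken 1 month (1M) or 3 months (3M) after injection, which gave 4 groups (1M Control, 1M STZ, 3M Control and 3M STZ) of 6 arrays each. STZ rats entered the study on hyperglycemia and received no insulin, so each STZ group holds untreated diabetes together with any direct action of the drug. Each CodeLink array reads 1 sample in 1 color as spot brightness, given below as log2 scaled intensity, where 0 is the median rat probe of that array, and brightness is not compared between probes. The labels do not say that each array was a separate rat, and the paper's animal table lists fewer control rats at 1M than there are arrays, so the p-values measure the spread between these arrays.

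The extracellular matrix of the retina is thin. It consists of basement membranes around vessels and at the vitreal surface, and of a hyaluronan and proteoglycan matrix between neurons and photoreceptors. Thickening of vascular basement membrane is a classic lesion of diabetic retinopathy. Matrix metalloproteinases (MMPs) and the plasminogen activators, which turn plasminogen into plasmin, degrade this matrix.

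Differences between STZ and control arrays were fitted with limma, all 4 groups together. A difference of at least 1.2-fold whose p-value, adjusted by Benjamini-Hochberg, was under 0.05 counted as a call. At 3M the difference of STZ minus control had a median of 0.44 (log2) over all 22025 tested probes, and 50.5% of them were called higher and 3.55% lower. Quantile normalization, which gives all arrays the same distribution, brought that median to 0.16, with 24.6% called higher and 6.92% lower. The shift grew with brightness, from 0.03 in the dimmest 20% of tested probes to 0.61 in the brightest 20%, and the spread of log2 values within an array (interquartile range) was 1.48 to 2.23 on 3M Control, 2.07 to 2.70 on 3M STZ and 3.36 to 3.67 on 1M arrays. Array 3M Control 2 stood apart (median correlation of 0.84 with the rest of its group), and the calls of the tested genes named below were repeated without it under median scaling. The median SD of a tested probe was 0.42 in 3M Control and 0.22 to 0.25 in the other groups, so the pooled spread is smaller than that of the 3M Control arrays. The rod genes Sag and Rcvrn were bright (mean of 6.85 and 5.34 on 3M Control arrays).

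In the matrix genes, 17 of the 30 tested were called higher with STZ at 3M (56.7%, against 50.5% of all probes), and 1, Mmp14, was called lower (3.33%, against 3.55%). The median difference of the 30 genes was 0.49, beside 0.44 for all probes. At 1M none of the 30 was called, beside 0.00908% of all probes (2 genes, Mgp and Col5a3, had an unadjusted p under 0.05), and the median difference was 0.09. The 12 remaining genes at 3M were Spp1, Ccn1, Ccn3, Col2a1, Ncan, Gpc2, Sdc2, Sdc3, Opcml, Mmp9, Adamts1 and Plau. All 6 STZ arrays lay above all 6 control arrays at 3M for 6 genes (Plat, Cspg4, Gpc1, Col5a3, Lamb2 and Fmod), 20% of the 30 against 9.49% of all probes. At 1M the groups overlapped for each of the 30 genes (0.545% of all probes had no overlap). By median scaling, the matrix genes as a list thus had about the same median difference as the array at 3M. Without 3M Control 2, the array-wide median under that scaling fell to 0.32 and that of the matrix genes to 0.41. After quantile normalization the median of the 30 genes was 0.31, beside 0.16 for all probes, and 46.7% against 24.6% were called higher. The account below turns on which members differed from the array-wide shift.

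**Figure D1:**
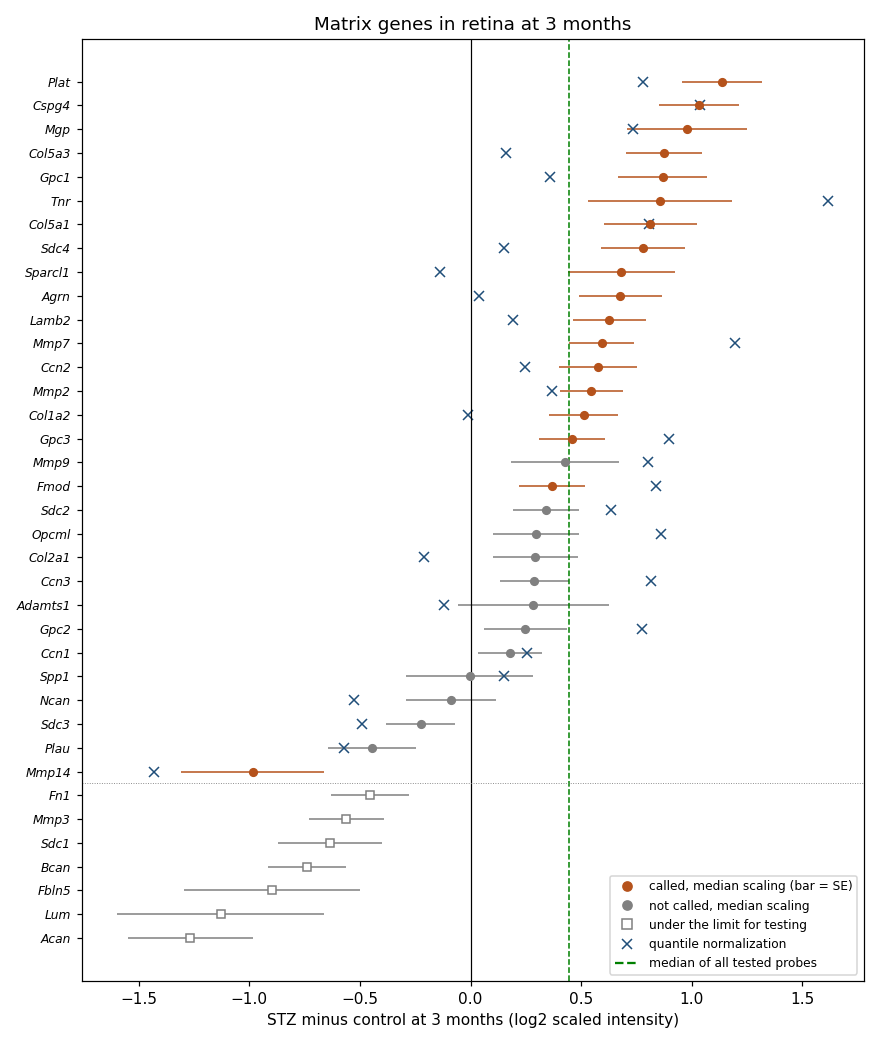
The horizontal axis gives STZ minus control at 3 months (log2 scaled intensity) for each of the 37 matrix genes with a probe; circles are tested genes, open squares genes under the limit for testing, bars SE, crosses the same difference after quantile normalization, and the dashed line the median of all tested probes. Plat (1.14) and Cspg4 (1.03) lie farthest right, Mmp14 (-0.99) is the tested gene farthest left, and the 7 dim genes all lie left of 0.

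Calls after quantile normalization separated the members into 3 sets. Both scalings called 9 genes higher (Plat, Cspg4, Mgp, Col5a1, Tnr, Gpc3, Fmod, Mmp2 and Mmp7) and 1 lower (Mmp14). The calls of 8 genes rested on median scaling (Sparcl1, Ccn2, Col1a2, Col5a3, Agrn, Lamb2, Gpc1 and Sdc4), and each of these was above background on every control array at both time points. Quantile normalization alone called 5 genes higher (Ccn3, Gpc2, Sdc2, Opcml and Mmp9) and Sdc3 lower. In all it called 14 higher (46.7%, against 24.6% of all probes) and 2 lower (6.67%, against 6.92%).

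Background was judged on each array by the 35th percentile of its own probes, and a gene was counted as above background in control retina when its probe passed on all 6 control arrays and as dim when it passed on fewer than 3. By this measure 26 of 37 genes were above background at 1M and 17 at 3M, and 14 at both (Sparcl1, Ccn2, Mgp, Col1a2, Col2a1, Col5a3, Agrn, Lamb2, Ncan, Gpc1, Sdc3, Sdc4, Mmp2 and Plat). Of these 14 genes, 11 were called higher at 3M and none lower, with a median difference of 0.65. That share of 78.6% stands beside 65.3% and 78.2% called higher, with medians of 0.55 and 0.61, among all probes in the next to brightest and the brightest 20%. A further 7 genes were above background at 1M and dim at 3M (Ccn3, Fmod, Tnr, Gpc2, Opcml, Mmp7 and Adamts1), Tnr by 1 of its 2 probes: the second passed on 2 of 6 control arrays at 1M and on 5 of 6 at 3M. In the opposite direction, Lum, Mmp3 and Mmp14 were dim in 1M Control and above background in 3M Control. Bcan was dim at both, and so was Fn1 by the probe that represents it, whereas its second probe passed on no 1M Control array and on all 6 of 3M Control. The widest gap was that of Adamts1, which encodes a protease that cleaves aggrecan and versican: its probe read 1.95 to 2.81 (median 2.48) in 1M Control and -6.43 to -4.49 (median -4.60) in 3M Control. The STZ arrays of Adamts1 differed in the same way, with medians of 2.55 at 1M and -4.49 at 3M, and the 3M difference of 0.28 was called only without 3M STZ 1 (0.67, limma adjusted p = 0.0361) and was -0.02 without 3M Control 2; no array at 3M passed the limit. Time after injection, age and array run cannot be told apart in levels set across the time points, so these are given without a test.

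**Figure D2:**
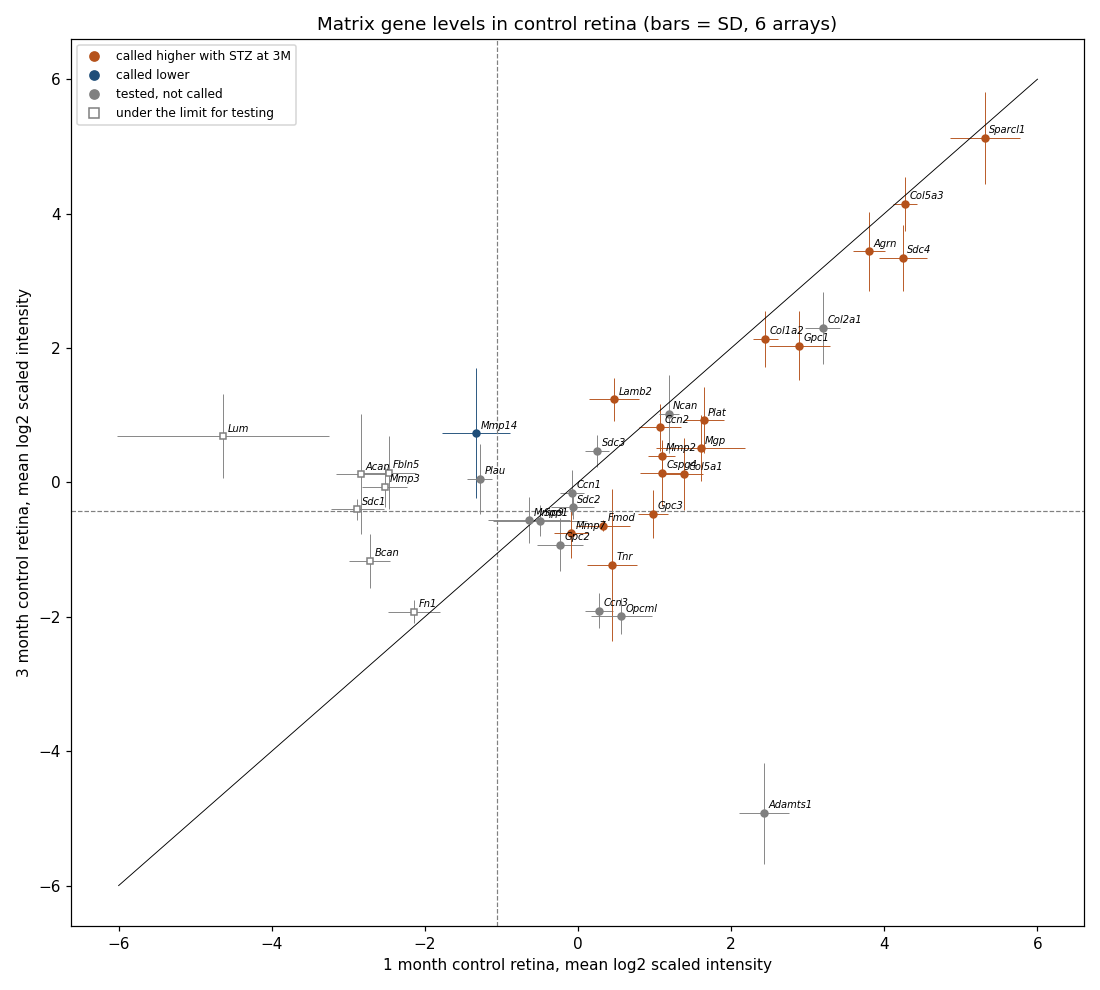
Mean log2 scaled intensity of the 37 matrix genes in control retina at 1 month (horizontal axis) and 3 months (vertical axis), with SD over 6 arrays as bars, the identity line, and the mean background limit of each group as dashed lines. Adamts1 falls far under the identity line (2.43 at 1 month, -4.92 at 3 months), while Lum, Acan, Fbln5, Sdc1 and Mmp3 lie above it.

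In a test of the difference between the effects at 3M and 1M, 7 matrix genes were called, all with the more positive effect at 3M (23.3%, against 14.8% of all probes). They were Plat (1.00), Gpc1 (0.97), Col5a1 (0.95), Cspg4 (0.90), Ccn2 (0.85), Lamb2 (0.76) and Col1a2 (0.63), in log2 difference of effects. Only Plat held this call whichever of the 24 arrays was left out. Without 3M Control 3, 3M STZ 5 or 3M STZ 6 the count fell to 1 each time, where all probes called more positive fell to 4.05%, 3.41% and 3.31%. Cspg4 and Ccn2 held through 21 of the 24 omissions, Gpc1 through 19, Col5a1 and Lamb2 through 14 and Col1a2 through 5. The count was 3 without 1M Control 6 (8.41% of all probes) and 11 without 3M Control 6 (39.7%). It was 4 without 1M Control 5 (8.09%), 1M STZ 4 (9.59%), 1M STZ 6 (9.29%) or 3M Control 1 (6.14%). After quantile normalization 4 genes were called (Mmp7, Fmod, Gpc3 and Sdc2) and none of the 7, although the effects of all 7 still pointed the same way (0.92 for Cspg4, 0.64 for Plat and 0.12 for Col1a2).

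**Figure D3:**
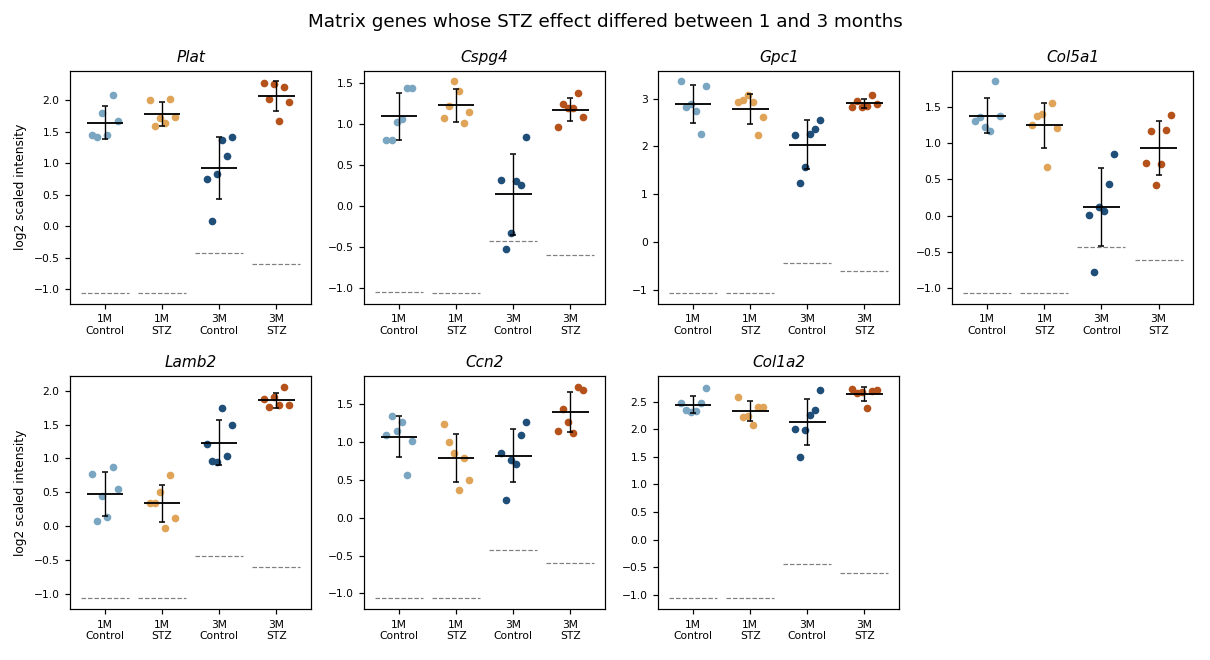
Each panel shows 1 matrix gene whose effect of STZ differed between the time points; the vertical axis is log2 scaled intensity, points are single arrays, black bars the mean and SD of 6 arrays, and dashed lines the mean background limit of the group. For Plat, Cspg4, Gpc1 and Lamb2 the 6 STZ arrays at 3 months all lie above the control arrays, and at 1 month the groups overlap in every panel.

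Promoter sequences are shown for the 4 of these 7 genes that the RefSeq promoter table (GRCr8) lists, because these were the members called for a difference between time points. Plat, Gpc1 and Lamb2 have no entry. Each line gives the 250 bases before the annotated start on the gene's own strand, 5′ to 3′, at chr1:22624615-22624864 (minus strand) for Ccn2, chr4:33518307-33518556 (plus) for Col1a2, chr3:31606630-31606879 (plus) for Col5a1 and chr8:66160692-66160941 (plus) for Cspg4. Capitals mark matches, on either strand, to the GC box (GGGCGG), the TATA box (TATAAA), the short SMAD element (CAGAC) or the TEAD element (GGAATG), which do not overlap one another here.
Ccn2: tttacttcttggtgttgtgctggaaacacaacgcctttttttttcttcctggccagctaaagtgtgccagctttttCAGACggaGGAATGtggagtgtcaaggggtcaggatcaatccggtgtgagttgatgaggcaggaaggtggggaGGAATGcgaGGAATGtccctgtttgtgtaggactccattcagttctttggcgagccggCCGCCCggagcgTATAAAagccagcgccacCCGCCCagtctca
Col1a2: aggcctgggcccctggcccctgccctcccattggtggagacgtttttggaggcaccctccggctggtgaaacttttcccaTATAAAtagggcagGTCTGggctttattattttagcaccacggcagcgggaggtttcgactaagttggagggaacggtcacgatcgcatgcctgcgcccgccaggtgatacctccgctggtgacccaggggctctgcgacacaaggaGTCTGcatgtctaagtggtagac
Col5a1: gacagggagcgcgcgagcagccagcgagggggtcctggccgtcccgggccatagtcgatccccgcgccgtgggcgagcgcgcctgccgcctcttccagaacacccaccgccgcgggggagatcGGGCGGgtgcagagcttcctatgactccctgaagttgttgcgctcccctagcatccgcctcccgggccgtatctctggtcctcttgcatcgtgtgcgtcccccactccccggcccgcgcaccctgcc
Cspg4: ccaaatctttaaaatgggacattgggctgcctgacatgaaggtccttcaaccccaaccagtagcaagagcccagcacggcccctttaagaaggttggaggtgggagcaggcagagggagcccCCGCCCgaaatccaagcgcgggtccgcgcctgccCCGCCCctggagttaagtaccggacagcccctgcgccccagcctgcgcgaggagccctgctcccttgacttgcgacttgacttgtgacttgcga
The GC box was matched in Ccn2, Col5a1 and Cspg4, and it occurs in 30.5% of all 33469 promoters of the same length. A TATA box lay 31 bases before the start of Ccn2 and 170 bases before that of Col1a2 (12.9% of all promoters). The SMAD element was found once in Ccn2 and at 2 places in Col1a2 (42.9% of all promoters). Ccn2 held 3 TEAD elements, at 166, 101 and 92 bases before the start (12.1% of all promoters hold at least 1). No motif was common to the 4 windows. These are matches of letters, and whether any is bound was not tested.

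Among adhesive and matricellular glycoproteins, 3 of 6 tested genes were called higher at 3M (Mgp, Sparcl1 and Ccn2), with a group median of 0.43. Mgp encodes matrix Gla protein, an inhibitor of calcification. Its brighter probe read 0.03 to 1.34 (median 0.44) in 3M Control and 0.53 to 2.18 (median 1.59) in 3M STZ, and 5 of the 6 STZ arrays lay above all controls. The difference was 0.98 ± 0.27 (SE; limma adjusted p = 0.00528), or 0.73 after quantile normalization. The same probe read 0.63 to 2.29 (median 1.75) in 1M Control and 1.67 to 2.78 (median 2.07) in 1M STZ, a difference of 0.61 that was not called. However, the second Mgp probe was called in the opposite direction at 3M. It read -0.39 to 0.31 (median -0.23) in 3M Control and -0.97 to -0.37 (median -0.80) in 3M STZ, a difference of -0.61 ± 0.23 (limma adjusted p = 0.0282), and on 4 of the 6 STZ arrays it did not pass the background limit. The direction of Mgp therefore depends on the probe.

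Sparcl1 encodes a SPARC relative secreted by glia and endothelium. It read 3.90 to 5.67 (median 5.45) in 3M Control and 5.54 to 6.00 (median 5.88) in 3M STZ, and the ranges overlapped. The difference of 0.68 ± 0.24 (limma adjusted p = 0.0208) became -0.14 after quantile normalization, and without 3M Control 2 it was 0.44 and no longer called (adjusted p = 0.0792); without 3M Control 3 it was 0.61, also not called (adjusted p = 0.0536). Ccn2, or connective tissue growth factor, is a matricellular protein induced by TGF-beta. Its probe read 0.24 to 1.26 (median 0.81) in 3M Control and 1.12 to 1.73 (median 1.35) in 3M STZ, against 0.57 to 1.34 and 0.37 to 1.23 in 1M Control and 1M STZ. The ranges overlapped at both times, and the difference was 0.58 ± 0.18 at 3M (limma adjusted p = 0.00964) and -0.28 at 1M. After quantile normalization the 3M difference was 0.25 (adjusted p = 0.269).

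The other tested members of this group were not called. Spp1 (osteopontin) differed by -0.00 at 3M and passed the limit on 1 of 6 control and 4 of 6 STZ arrays. Ccn1, the relative of Ccn2 also known as Cyr61, differed by 0.18, and its second probe, under the limit for testing, by -0.65. Ccn3 differed by 0.29 and passed the limit on none of the 12 arrays at 3M, although it did so on all 6 control arrays at 1M. Its call after quantile normalization (0.81, limma adjusted p = 0.00426) therefore rests on values that never rose above background.

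Of the fibrillar collagens, Col5a3, Col5a1 and Col1a2 were called higher at 3M and Col2a1 was not, and the group median was 0.66. Col5a3 and Col5a1 encode chains of collagen V, which nucleates collagen fibrils, and Col1a2 a chain of collagen I. Col5a3 read 3.36 to 4.43 (median 4.29) in 3M Control and 4.67 to 5.27 (median 5.12) in 3M STZ, with no overlap. The difference was 0.88 ± 0.17 (limma adjusted p = 5.03e-04), and 0.16 after quantile normalization, where it was not called. Col5a1 read -0.77 to 0.85 (median 0.09) in 3M Control and 0.43 to 1.39 (median 0.94) in 3M STZ. Here the ranges overlapped, yet the difference of 0.81 ± 0.21 (limma adjusted p = 0.00327) was also 0.81 after quantile normalization (adjusted p = 0.0123). At 1M the Col5a1 groups lay between 1.16 and 1.85 (control) and between 0.67 and 1.55 (STZ), and the difference was -0.14.

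Col1a2 spanned 1.49 to 2.73 (median 2.12) in 3M Control and 2.39 to 2.73 (median 2.68) in 3M STZ, so that only 1 STZ array exceeded the highest control. Its difference of 0.51 ± 0.16 (limma adjusted p = 0.00908) went to -0.01 after quantile normalization. At 1M it read 2.32 to 2.74 in control and 2.07 to 2.59 in STZ retina. Col2a1, the collagen of vitreous and cartilage, differed by 0.29 at 3M and by -0.21 after quantile normalization, neither called. Collagen is also made by fibroblasts and sclera. The 2 tested markers of that list, Pcolce and Serpinf1, were called higher (1.16 and 1.69), and the sum of scaled intensity over its 3 probes was 2.64 to 4.68 in 3M Control and 6.24 to 17.2 in 3M STZ (4.57 to 7.85 and 2.63 to 9.98 at 1M). Both are also among the other matrix genes counted further on, and the paper placed Serpinf1 (PEDF) in its inflammatory group. The third probe, Thy1, was under the limit for testing (-0.09) and is also a listed marker of ganglion cells. None of the 3 is thus listed for fibroblasts and sclera alone. Pdgfra, Dpt, Col6a1 and Col6a2, the defining markers of the fibroblast and sclera list, had no matched probe. The part of such cells in the collagen values was not tested. In bulk retina, more cells of a type and more RNA per cell cannot be told apart.

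Both tested basement membrane genes were called higher at 3M. Agrn encodes agrin, a heparan sulfate proteoglycan, and Lamb2 the laminin beta 2 chain of the inner limiting membrane. Agrn spanned 2.54 to 4.11 (median 3.65) in 3M Control and 3.90 to 4.29 (median 4.15) in 3M STZ. Its ranges overlapped, with 4 of 6 STZ arrays above all controls, and the difference was 0.68 ± 0.19 (limma adjusted p = 0.00536). Lamb2 spanned 0.95 to 1.75 (median 1.12) in 3M Control and 1.76 to 2.06 (median 1.83) in 3M STZ, with a narrow gap and no overlap. The difference for Lamb2 was 0.63 ± 0.16 at 3M (limma adjusted p = 0.00373) and -0.13 at 1M, where control read 0.08 to 0.88 and STZ -0.02 to 0.75. Quantile normalization left 0.04 for Agrn and 0.19 for Lamb2, neither called. The endothelial markers Kdr and Flt1, the 2 of 9 on that list with a probe, were also called higher (0.59 and 0.34) by median scaling, but neither was called after quantile normalization or without 3M Control 2 (0.34 and 0.28). Their summed intensity was 5.14 to 17.7 in 3M Control and 11.4 to 22.8 in 3M STZ, and the part of vessel content was not tested.

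Of the 6 interstitial proteoglycans and tenascin-R with a probe, Fmod and Tnr were called higher at 3M, Ncan was not called, and Lum, Bcan and Acan lay under the limit for testing. Fmod (fibromodulin, a small leucine-rich proteoglycan that binds collagen) read -0.77 to -0.57 in 3M Control, under the limit on all 6 arrays, and -0.40 to -0.00 in 3M STZ, over it on all 6. It was at least 1.12-fold higher with STZ against that limit; the fitted difference was 0.37 (limma adjusted p = 0.0399), and its call was lost on leaving out 8 of the 24 arrays in turn (3M Control 1, 2, 3 or 4, and 3M STZ 2, 3, 5 or 6, where the difference was 0.31 to 0.38). Tnr encodes tenascin-R, a glycoprotein of perineuronal nets. Its brighter probe read -3.44 to -0.42 (median -0.81) in 3M Control and -0.54 to -0.27 (median -0.35) in 3M STZ, and passed the limit on 1 of 6 control arrays. The difference was 0.86 ± 0.33 (limma adjusted p = 0.0298), but without 3M Control 2, which held the lowest value, it was 0.41 (adjusted p = 0.0899). Its call was also lost without 3M Control 3 (0.83, adjusted p = 0.0531), without 3M STZ 5 (0.83, adjusted p = 0.0524) and with a model of 3M alone (adjusted p = 0.077). The second Tnr probe, which passed on 5 of 6 control and all 6 STZ arrays at 3M, differed by 0.22 and was not called. Ncan (neurocan) was above background in every group and differed by -0.09, with 3M Control 2 at 2.19 and the remaining controls between 0.60 and 0.90, so the difference was 0.15 without that array.

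**Figure D4:**
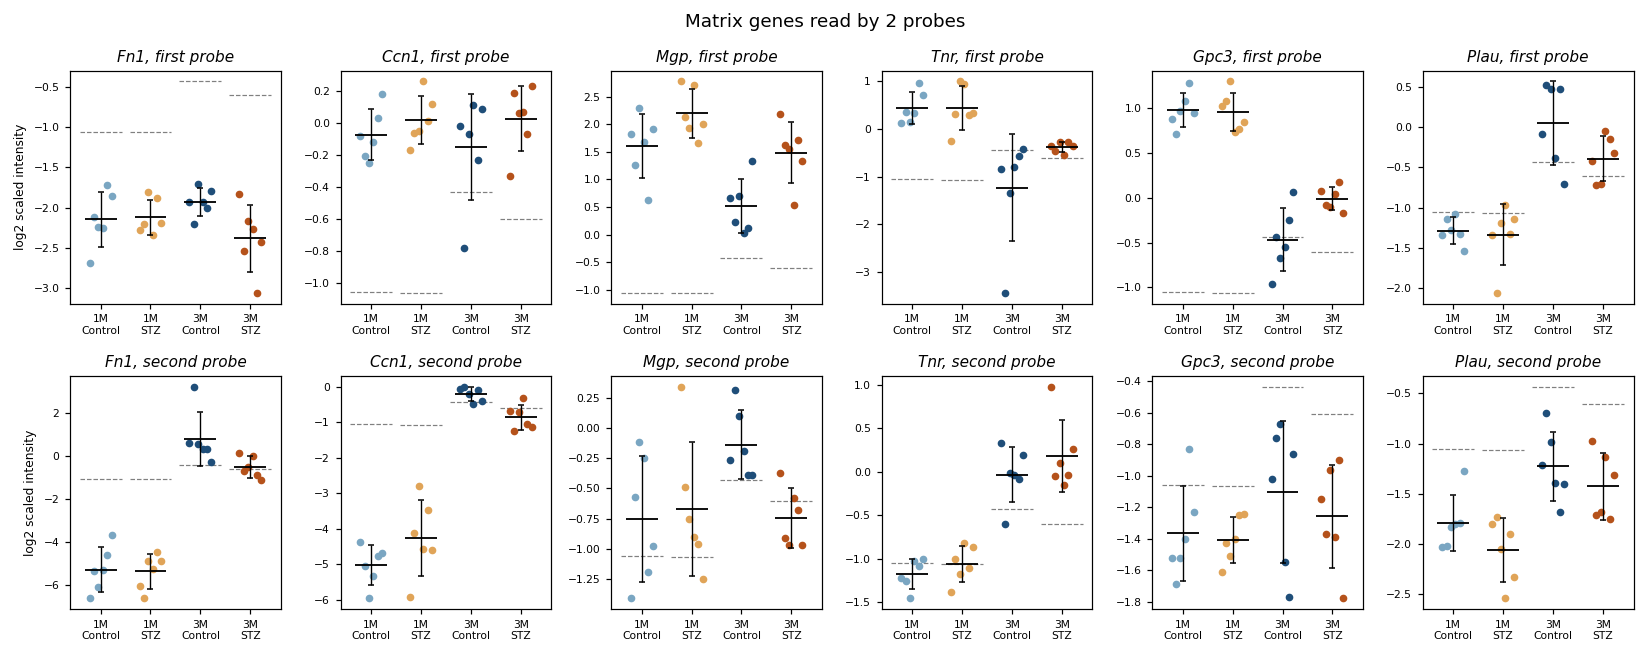
The 6 matrix genes with 2 matched probes, 1 gene per column, the brighter tested probe on top; the vertical axis is log2 scaled intensity, points are single arrays, black bars mean and SD, and dashed lines the mean background limit of the group. The Mgp probes move in opposite directions at 3 months (0.98 and -0.61), and the second probes of Fn1 and Ccn1 lie near -5 at 1 month and near 0 at 3 months.

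Cell surface proteoglycans held the clearest single gene after Plat. Cspg4 (NG2), a chondroitin sulfate proteoglycan of pericytes and oligodendrocyte precursors, read -0.53 to 0.84 (median 0.27) in 3M Control and 0.96 to 1.38 (median 1.19) in 3M STZ. No STZ array reached down to the controls. The difference was 1.03 ± 0.18 (limma adjusted p = 2.38e-04), a 2.04-fold change, and it was 1.04 after quantile normalization (adjusted p = 0.00114). At 1M Cspg4 read 0.80 to 1.45 (median 1.04) in control and 1.01 to 1.52 (median 1.18) in STZ retina. None of the 5 tested pericyte and smooth muscle markers was called (Pdgfrb -0.19, Rgs5 -0.34, Anpep 0.21, Abcc9 0.39 and Tagln 0.06), and the summed intensity of that list was 5.29 to 7.41 in 3M Control and 5.25 to 6.33 in 3M STZ.

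The glypicans and syndecans, heparan sulfate proteoglycans that bind growth factors, were called unevenly. Gpc1 read 1.23 to 2.55 (median 2.25) in 3M Control and 2.83 to 3.08 (median 2.87) in 3M STZ, without overlap. Its difference was 0.87 ± 0.20 (limma adjusted p = 0.00169), and 0.36 after quantile normalization (adjusted p = 0.101). At 1M both Gpc1 groups lay between 2.23 and 3.36, and the difference was -0.10. Sdc4 read 2.46 to 3.88 (median 3.49) in 3M Control and 3.85 to 4.40 (median 4.15) in 3M STZ, with 5 of 6 STZ arrays above all controls. For Sdc4 the difference was 0.78 ± 0.19 (limma adjusted p = 0.00218) and 0.15 after quantile normalization (adjusted p = 0.494). Gpc3 was called at 0.46 and also by quantile normalization at 0.90, with its controls over the limit on 3 of 6 arrays. Its second probe, under the limit for testing, pointed the other way (-0.15). Sdc2 (0.34), Gpc2 (0.25) and the neural adhesion protein Opcml (0.30) were not called, and quantile normalization called all of them higher (0.63, 0.77 and 0.86). Sdc2 gained a call without 3M Control 4 (0.38, limma adjusted p = 0.0484) or without 3M STZ 6 (0.40, adjusted p = 0.0401). Opcml passed the limit on no array at 3M and on all 6 control arrays at 1M. Gpc2 passed it at 3M on no control array and on 2 of 6 STZ arrays. Sdc3, the neuronal syndecan, differed by -0.23 and by -0.49 after quantile normalization, where it was called lower.

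The matrix proteases split by member. Mmp2 (gelatinase A) read 0.22 to 0.71 (median 0.35) in 3M Control and 0.70 to 1.10 (median 1.02) in 3M STZ, and 5 of 6 STZ arrays lay above all controls. Its difference was 0.55 ± 0.14 (limma adjusted p = 0.00327), and 0.37 after quantile normalization (adjusted p = 0.0455). Mmp7 (matrilysin) read -1.41 to -0.27 (median -0.70) in 3M Control and -0.38 to 0.04 (median -0.18) in 3M STZ, and it passed the limit on 1 of 6 control and all 6 STZ arrays. The Mmp7 difference was 0.59 ± 0.15 (limma adjusted p = 0.00285). Mmp9 (gelatinase B) differed by 0.43 and was not called, with 1 of 6 controls and 4 of 6 STZ arrays over the limit.

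Mmp14, the membrane-bound activator of pro-MMP2, was the only tested member called lower. It read -0.32 to 2.49 (median 0.63) in 3M Control and -0.85 to 0.20 (median -0.15) in 3M STZ, so the ranges overlapped. The difference was -0.99 ± 0.32 (limma adjusted p = 0.014), and -1.43 after quantile normalization. Without 3M Control 2, the highest array, it was -0.63 and not called (adjusted p = 0.0522). At 1M the probe was dim, with 2 of 6 control arrays and 2 of 6 STZ arrays over the limit. With a limit for testing set at the 95th percentile of the bacterial control probes, Mmp14 was not tested.

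By median scaling, Plat, the gene of tissue plasminogen activator, showed the largest difference among the 30 tested matrix genes. It read 0.08 to 1.42 (median 0.97) in 3M Control and 1.66 to 2.27 (median 2.10) in 3M STZ, with no overlap. The difference was 1.14 ± 0.18 (limma adjusted p = 1.27e-04), a 2.20-fold change, and remained called after quantile normalization (0.78, adjusted p = 0.00284). At 1M Plat read 1.42 to 2.08 (median 1.55) in control and 1.58 to 2.01 (median 1.72) in STZ retina, a difference of 0.14. Plau, the gene of urokinase, pointed the other way (-0.45) without a call (limma adjusted p = 0.0608). It was called lower when 1M STZ 2, 3M Control 4, 3M Control 6 or 3M STZ 4 was left out (-0.45, -0.53, -0.60 and -0.52), and its second probe differed by -0.20.

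The 7 members under the limit for testing had lower readings with STZ at 3M, with differences of -1.27 (Acan) to -0.45 (Fn1) and a median of -0.74. Bcan and the representative probe of Fn1 passed the background limit on none of the 24 arrays, so their readings give no level. In a fit of all 33849 rat probes with no limit, 5 of the 7 were called lower (Acan, Bcan, Sdc1, Mmp3 and Fn1), beside 34.6% of the 11824 probes under the limit, whose median difference was -0.44. Acan (aggrecan) read -0.91 to 1.76 (median -0.02) in 3M Control and -1.59 to -0.66 (median -1.29) in 3M STZ. It passed the background limit on no 3M STZ array, and by the mean of all 6 controls it was at least 1.65-fold lower. That mean includes 3M Control 2 at 1.76, above the remaining controls (-0.91 to 0.19). The bound was not tested without that array. Sdc1 also passed on no 3M STZ array. It passed on 3 of 6 control arrays at 3M, where it read -0.60 to -0.26 against limits of -0.49 to -0.37. Its control readings thus lay near background, so no minimum fall is given. The second probe of Fn1 (fibronectin) spanned -0.28 to 3.25 in 3M Control and -1.10 to 0.14 in 3M STZ, but -6.64 to -3.69 in 1M Control. Its highest value was again that of 3M Control 2, with the remaining controls at -0.28 to 0.63. At 1M none of these 7 genes passed the limit on any control array. Over the whole array as well, the median difference of probes under the limit (-0.44) and that of the brightest 20% (0.61) differed in sign.

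**Figure D5:**
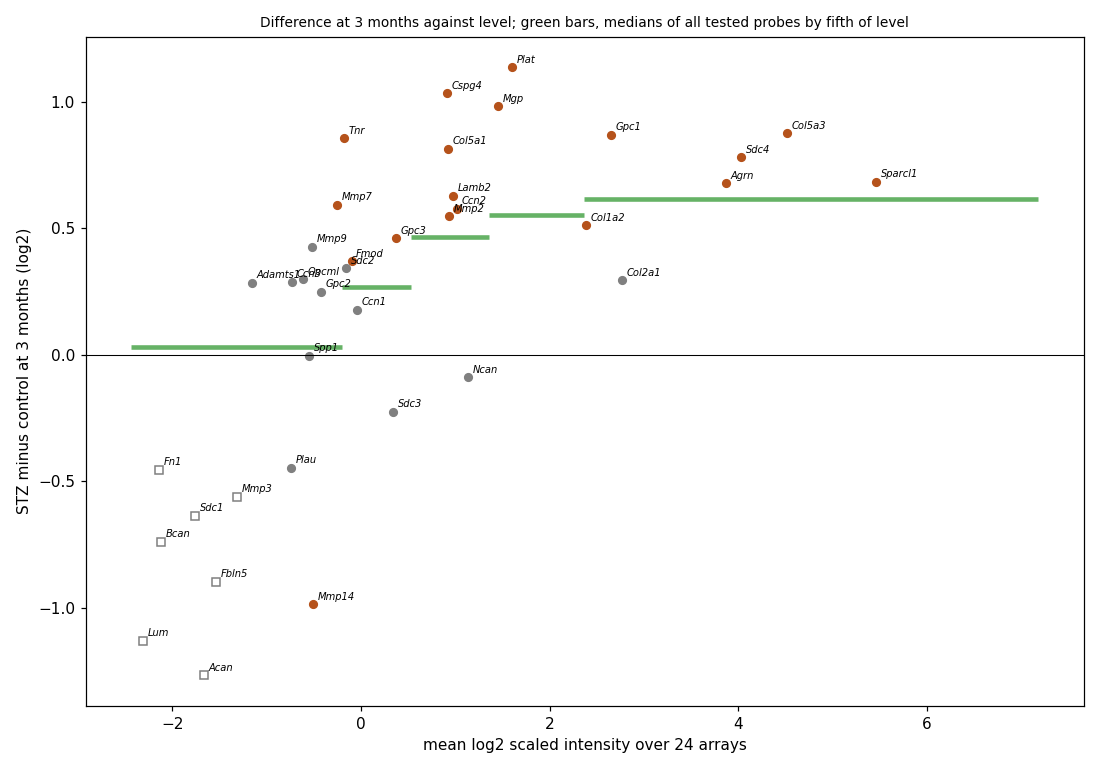
STZ minus control at 3 months (log2, vertical axis) against mean log2 scaled intensity over the 24 arrays (horizontal axis) for the 37 matrix genes; filled circles are tested genes (orange when called), open squares genes under the limit, and green bars the median of all tested probes in each 20% of the level range by rank. Plat, Cspg4, Mgp and Col5a1 lie above the bar at their level, while Mmp14, Plau and Sdc3 lie under theirs.

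Of 95 other genes of matrix biology, 36 were tested, and at 3M 22 were called higher (61.1%, against 50.5% of all probes) and 1 lower (2.78%, against 3.55%). After quantile normalization 14 were called higher, where 24.6% of all probes were. Plod1 and Vtn were then called lower, where 6.92% of all probes were. The protease inhibitors, which limit MMPs and plasmin, had the largest differences, with 5 of 7 called higher by either scaling. Timp1, the secreted inhibitor of MMPs, differed by 2.80 (limma adjusted p = 4.88e-04) and Serping1, the C1 inhibitor, by 2.17 (adjusted p = 1.32e-05), and quantile normalization called both (2.16 and 1.87). Matrix receptors were called higher in 5 of 6 cases (4 after quantile normalization, and 3 without 3M Control 2), among them the hyaluronan receptor Cd44 (1.33) and the collagen receptor Ddr2 (0.76, with 1 of 6 controls over the background limit). In TGF-beta signalling 8 of 12 were called higher, but 3 after quantile normalization. Smad3, a signal transducer of that pathway, passed the limit on no 3M Control array and was at least 1.40-fold higher with STZ, and the coreceptor Tgfbr3 (1.04) passed on 1 of 6. Collagen processing had 3 of 7 called higher, with Pcolce (1.16) and Plod2 (0.83) the most extreme, and 1 higher and 1 lower after quantile normalization. Hyaluronan metabolism had 1 of 3 (Has3, 0.71), which lost its call after quantile normalization (0.51). Has2 was called under that scaling instead (0.84), with no 3M Control array over the limit. Vtn (vitronectin) was the only tested gene of the other basement membrane and matrix proteins and was called lower (-0.63), though not without 3M Control 2 (-0.38, limma adjusted p = 0.139). No gene of this list was called at 1M. The Mueller glia and astrocyte markers moved with these genes at 3M: 4 of 6 tested were called higher (Vim 1.53, Gfap 1.29, S100b 1.02 and Slc1a3 0.88). Glul (0.35) and Kcnj10 (-0.01) were not called and read -0.45 and -0.43 after quantile normalization, where Slc1a3 (0.18) also lost its call. The summed intensity of the list was 48.9 to 138 in 3M Control and 136 to 183 in 3M STZ. Of the lens markers 3 of 4 were called higher, but 1 after quantile normalization, with sums of 98.4 to 214 and 307 to 451. Of the microglia and leukocyte markers 2 of 3 were called higher by either scaling (Cd74 1.36 and Itgam 0.64). The third, Aif1 (0.21), was not called, but it was without 3M Control 2 (0.45). The sums of that list were 5.04 to 8.47 in 3M Control and 7.20 to 11.7 in 3M STZ. The part of these glial, lens and leukocyte cells in the matrix values was not tested.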

How the data were processed

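The authors imaged CodeLink rat whole genome arrays, excluded spots with manufacturing defects, subtracted background and normalized within each array, and deposited linear intensity after that subtraction, with a second column rescaled to about the array's median. Here each array's intensity was divided by the median over its 33849 rat probes, raised to 0.01 where lower, and put on the log2 scale. Testing was limited to rat probes whose median scaled intensity over the 24 arrays exceeded the 35th percentile of all 33911 probes (0.554) with at least 4 values per group, which left 22025 probes. Groups were compared with limma 3.58.1 (R 4.3.3) in 1 linear model of 4 groups, with Benjamini-Hochberg adjustment over all tested probes, and tables were made with pandas 2.3.3. The model was checked on simulated data with 200 changed probes. There, with a larger spread at 3M than at 1M, the pooled model made more false calls at 3M than its threshold allows. A model of 3M alone did not in that simulation. Counts from the model of 3M alone are given under the alternatives.

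Symbols came from RefSeq accessions (4675 of 5469 matched, GRCr8 table). A gene with several tested probes was read by the one with the highest mean. Named with full values were members called lower at 3M, those called in the test between time points, and the 15 called members with the largest difference at 3M; further genes were named to account for every member. The 2 most extreme called genes of each other list were named, and the marker genes were named after their values were seen. The values of 1 gene of the other lists are not reported here, although it is included in the counts. Members and lists were chosen with earlier results of these data known. Alternatives were quantile normalization, the deposited scaling, no limit and a higher limit on dim probes, a floor of 0.1, separate models, the replicate number as a block, the test of the study's methods (p under 0.01, 1.2-fold) with and without adjustment, no fold limit, array weights, the dimmer probe, and each array left out; removal of each array's 5th percentile before scaling was chosen after seeing the data. The signal over background and the number of arrays limit precision. On 3 arrays 1 probe had no value.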

Additional observations from a re-analysis of the deposited data

Results flagged for a closer look

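The effect of STZ at 3M exceeded that at 1M for 7 matrix genes by the test of the difference itself (limma interaction term), by 0.85 for Ccn2, 0.63 for Col1a2, 0.95 for Col5a1, 0.76 for Lamb2, 0.97 for Gpc1, 0.90 for Cspg4 and 1.00 for Plat (log2). These differences stand beside a median of 0.44 over all tested probes.

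A single array lay far from the rest of its group in 10 of 120 groups of 6 arrays, where chance gives about 1 in 20. Array 3M Control 2 was the lowest for Col5a3 (3.36), Tnr (-3.44) and Adamts1 (-6.43) and the highest for Ncan (2.19). At 3M STZ, array 4 was the lowest for Col1a2 (2.39) and the highest for Ncan (1.46). Among 1M arrays, control 5 was the lowest for Sparcl1 (4.41) and the highest for Col5a1 (1.85), STZ 4 was the lowest for Col2a1 (2.32) and STZ 2 the lowest for Plau (-2.06).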

How the results depend on the processing

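At 3M, 17 matrix genes were called higher by the model of 4 groups and 16 by a model of 3M alone (39.8% of all probes). The methods' test called 11 higher and none lower (10 of the 18 called genes kept their call), and 6 and 0 after Benjamini-Hochberg adjustment, beside 15.8% and 8.12% of all probes called higher. Beside the 1 gene called lower, there were 2 after quantile normalization, with array weights or with the dimmer probe, 6 with no limit on dim probes, and 0 with the limit at the 95th percentile of the bacterial probes. Of all probes, 6.92% were called lower after quantile normalization, 4.67% with array weights, 14.2% with no limit and 0.558% with the bacterial limit. Effects differed between time points for 4 genes after quantile normalization and 12 with array weights (10.8% and 46.9% of all probes). Of the other matrix pathway genes, 14 were called higher after quantile normalization, 14 by the methods' test and 10 with its adjustment. With background set by the bacterial probes, 7 rather than 14 genes were above it in control retina at both times. Quantile normalization reversed Sparcl1 (-0.14) and Col1a2 (-0.0097), and the dimmer probe reversed Mgp (-0.61). The cause of these shifts was not tested.

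Leaving out 1 array at a time gave 14 to 18 genes called higher, 0 (without 3M Control 2) to 2 called lower (2 without 1M STZ 2, 3M Control 4, 3M Control 6 or 3M STZ 4), 0 called at 1M, 1 to 11 with effects that differed, a median difference of 0.41 to 0.59, and 21 to 24 other matrix pathway genes called higher. The shares of all probes moved as well. From the omission of 3M Control 2 to that of 3M Control 6, 37.6% to 59.2% were called higher and 2.07% to 4.57% lower. Those with a more positive effect at 3M ran from 3.31% without 3M STZ 6 to 39.7% without 3M Control 6.

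Same-numbered STZ and control arrays did not deviate together (correlations from -0.24 to 0.25), so the numbers do not pair the samples. With the replicate number as a block, 17 genes were called higher and 1 lower, and the 18 calls were unchanged. Probes near or under background limit what can be read from Ccn3, Gpc2, Opcml, Adamts1, Fmod, Tnr, Mmp7 and the 7 dim genes. The group medians of raw array brightness ran from 148 to 284.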
